A study of Mus musculus with 2 samples.

Results

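The 36 genes described here form the S phase and DNA replication list: the replication licensing factors, the helicase and polymerase machinery of the fork, the enzymes that supply deoxynucleotides, and proteins that repack and repair new DNA. They were chosen by symbol from a list of S phase genes used to call cell cycle phase, and the rule used no measured value, though the list was proposed with earlier results of these data known. All 36 were found, each once, among the 31053 genes of the count tables. The cells were sorted Lin- Kit+ bone marrow cells, a gate for blood stem and progenitor cells that removes cells with mature lineage antigens. There was 1 library of wild-type marrow (WT) and 1 of marrow whose GATA-1 carries a knock-in mutation (KI), named 2RA in the title of the series. The stated purpose was to compare marrow populations and gene regulation between the genotypes. Both libraries share the sort and the droplet protocol. Age, sex, strain and the number of animals in a library were not given in the sources used here.

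Before S phase, the MCM helicase is loaded onto origins by Cdc6 and Cdt1, which is called licensing. During S phase the loaded helicases are started by Cdc45 and the GINS complex, and polymerases copy both strands behind them. Transcription of most of these genes is switched on by E2F factors late in G1. Early red cell precursors are known for rapid cycling, and their commitment to the red cell programme under GATA-1 takes place around S phase. GATA-1 itself drives red cell, megakaryocyte, mast cell and eosinophil genes.

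The letters of the promoters are shown first because the share of genes with an E2F motif was farther above that of all genes than for the other motifs searched. RefSeq promoter windows (GRCm38.p6, 250 bases before to 50 after a start) were matched for 31 of the 36 genes. Mcm4, Gins1, Gins2, Pole and Rfc2 were not matched. An E2F motif was searched as TTTGGCGC, TTTCCCGC, TTTGCCGC or TTTCGCGC on both strands, and was present in 14 of the 31 genes (45.2%) against 2.61% of 27025 genes with a window. The share was 37.5% for 40 other replication genes and 6.52% for 46 genes of G2 and M phase. The CHR element of G2 and M phase promoters was searched as TTTGAA or TTCGAA on both strands. It was present in 76.1% of the G2 and M phase genes, 19.4% of the 31 genes and 21.7% of all genes. A CCAAT box on either strand was present in 64.5% of the 31 genes and 41.1% of all. TTTCGCGC can overlap TTTGGCGC on the other strand. Median GC content was 60.0% in the windows of the list and 52.7% in all windows. A match is a description of letters and not a measured site. The 4 stretches below are those in which the motif and its flanks lay wholly upstream of the annotated gene, and capitals mark the E2F motif. Each is given 5′ to 3′ on the strand of its gene. Dtl lies at chr1:191575545-191575624 (minus strand), Mcm5 at chr8:75109320-75109399 (plus strand), Mcm6 at chr1:128359713-128359792 (minus strand) and Pola1 at chrX:93632254-93632333 (minus strand). The capitals of Mcm5 hold 2 overlapping matches, 1 on each strand.
Dtl: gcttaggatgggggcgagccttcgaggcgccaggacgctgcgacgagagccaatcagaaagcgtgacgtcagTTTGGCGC
Mcm5: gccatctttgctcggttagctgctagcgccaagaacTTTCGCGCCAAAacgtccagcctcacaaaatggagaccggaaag
Mcm6: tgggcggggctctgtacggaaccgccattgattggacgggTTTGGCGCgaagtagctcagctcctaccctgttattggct
Pola1: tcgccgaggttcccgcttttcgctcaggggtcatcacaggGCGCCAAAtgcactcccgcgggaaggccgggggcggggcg

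The libraries differed in depth and in how their cells clustered, which touches every value below. The labels gave a target of 6000 cells per channel, and the files held 7471 WT and 6640 KI barcodes with 70543211 and 48005467 unique molecular identifiers (UMIs, each standing for 1 captured RNA molecule). Cells kept numbered 5489 and 5491, with a median of 9635 and 5280 UMIs. A mitochondrial share above 10% removed barcodes unevenly: 23.0% of WT and 11.4% of KI barcodes were over it. The files shared 10 barcodes, 5 of them among the kept cells. Kit, the gene of the sorted receptor, had a UMI in 64.5% of WT and 56.0% of KI cells, against 0% (0 to 0.0672) and 0.182% for Cd3e, a T cell gene, 0.0911% and 0.674% for Cd79a, a B cell gene, and 3.26% and 1.91% for Itgam, a myeloid gene. Cells were clustered without the 36 genes and without the other cell cycle lists, and clusters were given a class where fixed marker genes resembled it, so that erythroid below means erythroid-like. Levels are CPM, UMIs of a gene or list per 1000000 UMIs of the class. Higher and lower give the sign of a log2 ratio, and a gene is counted as apart where that ratio is at least 0.32 in size, a limit on size and not a test. Every interval is a 95% interval for counting error only, since 1 library per genotype allows no test and gives no error between animals.

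Lineages differed in the summed level of the list, and by this sum erythroid cells stood highest in both libraries. In WT the list reached 4191 CPM (4170 to 4213) in erythroid cells, 3528 in monocyte progenitors, 3472 in megakaryocyte cells, 3188 in basophil and mast cells, 3170 in neutrophil progenitors, 3138 in stem and multipotent cells and 3040 in lymphoid-primed cells. In KI the order began likewise, with erythroid cells at 3808 CPM (3786 to 3831), monocyte progenitors at 3721 and megakaryocyte cells at 3567. It went on with neutrophil progenitors at 3163, stem and multipotent cells at 2938, lymphoid-primed cells at 2762 and basophil and mast cells at 2675. The low end was ordered differently in the libraries, and in WT each of its 4 classes overlapped the next in its interval. Mature lymphocyte clusters, 55 cells of both libraries, gave 1833 CPM (1613 to 2075) from 250 list UMIs, at a median of 1524 UMIs per cell. That level is a reference and not a floor. Replication in these cells was not measured, and a KI erythroid cluster described below lay lower.

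**Figure D1:**
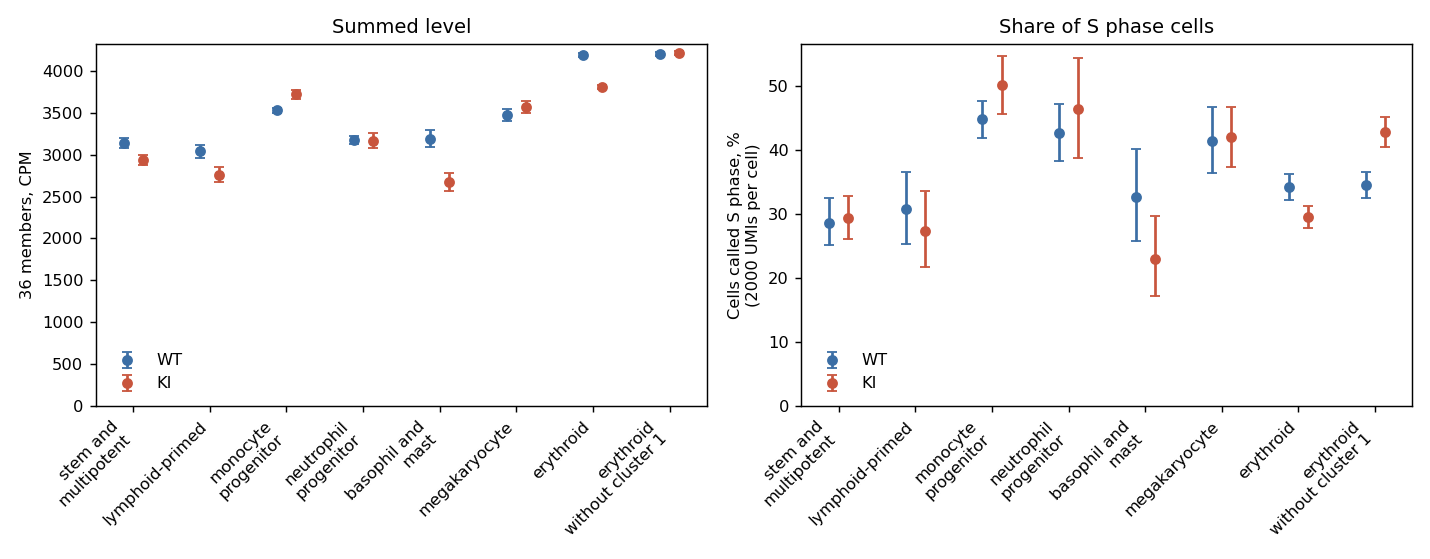
Level of the 36 genes together and share of S phase cells in each class. Points show WT (blue) and KI (red) with counting intervals of 95%; the last pair leaves out cluster 1, a cluster of mostly KI cells described with the erythroid stages. Erythroid cells have the highest summed level in both libraries (4191 and 3808 CPM), though not in KI as a mean per thinned cell. Their share of S phase cells (34.2% and 29.5%) lies below that of monocyte progenitors (44.7% and 50.1%).

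The share of cells called S phase followed another order. Each cell was thinned to 2000 UMIs, which left out 107 WT and 299 KI cells, and was called S phase where its score over the 36 genes was above 0 and at least its score over 52 genes of G2 and M phase. Monocyte progenitors had the highest share, 44.7% in WT and 50.1% in KI. Neutrophil progenitors followed at 42.7% and 46.4%, and megakaryocyte cells at 41.4% and 42.0%. Erythroid cells stood at 34.2% and 29.5%, lymphoid-primed cells at 30.7% and 27.4%, and stem and multipotent cells at 28.6% and 29.4%. A further 41.0% of WT and 30.3% of KI erythroid cells took the G2 and M call. Lymphocyte clusters gave 2 S phase cells of 22, 9.09% (1.12 to 29.2). The call is a range rather than a type, since 32.5 to 57.7% of the cells of a class lay within 0.05 of the S score threshold, and no cycling is read from it alone. Without thinning, the shares were 38.6% and 31.6% in erythroid, 52.7% and 55.6% in monocyte, 51.3% and 53.2% in neutrophil, 39.6% and 42.5% in megakaryocyte, 31.8% and 28.2% in stem, 35.7% and 29.1% in lymphoid-primed and 29.5% and 20.1% in basophil and mast cells.

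Within the list, genes differed in how stem and erythroid cells compared. Of the 36 genes, 30 in WT and 27 in KI were higher in erythroid than in stem and multipotent cells, with a median log2 ratio of 0.36 and 0.34 against -0.12 and -0.09 over all genes. Higher by at least 0.32 (log2) were 19 genes in each library, where 28.9% of all genes in WT and 28.5% in KI were. At 1.5-fold the counts were 8 in WT (18.2% of all genes) and 10 in KI (17.5%). Cdc6, the helicase loader, went from 22.9 to 77.6 CPM in WT (log2 ratio 1.76) and from 28.1 to 58.8 CPM in KI (1.07). Rrm2, the regulated subunit of ribonucleotide reductase, went from 48.0 to 128 CPM in WT (1.41) and from 45.3 to 92.9 CPM in KI (1.04). Both therefore stood higher in erythroid cells by a ratio that was smaller in KI. Dut, which removes dUTP and so keeps uracil out of DNA, went from 339 to 724 CPM in WT (1.09) and from 276 to 629 CPM in KI (1.19). Fen1, the nuclease that trims Okazaki fragments, went from 67.2 to 141 CPM (1.07) and from 52.6 to 125 CPM (1.249). In contrast, Rfc2, a subunit of the clamp loader, went from 249 down to 143 CPM in WT (-0.80) and from 240 down to 154 CPM in KI (-0.64). Its partner subunit Rfc4 had log2 ratios of 0.77 and 0.71. Hells, a chromatin remodeller of the DNA methylation machinery, was lower in erythroid cells as well, at 94.2 and 69.4 CPM in WT (-0.44) and 90.9 and 62.3 CPM in KI (-0.55). Ung, which excises uracil from DNA, had ratios of -0.31 and -0.26.

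Other lineages shared part of this order. Rrm2 was higher than in stem cells by 1.51 and 1.58 (log2, WT and KI) in monocyte progenitors and by 1.72 and 1.249 in neutrophil progenitors. Cdc45, which joins the helicase when origins start, was higher by 0.94 and 1.37 in monocyte progenitors. Chaf1b, a subunit of the histone chaperone CAF-1, had ratios of -0.87 and -0.33 in neutrophil progenitors. Over the list, the monocyte to stem median was 0.17 in WT, with 10 genes apart and higher (17.3% of all genes), and 0.33 in KI, with 19 such genes (18.4% of all genes).

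**Figure D2:**
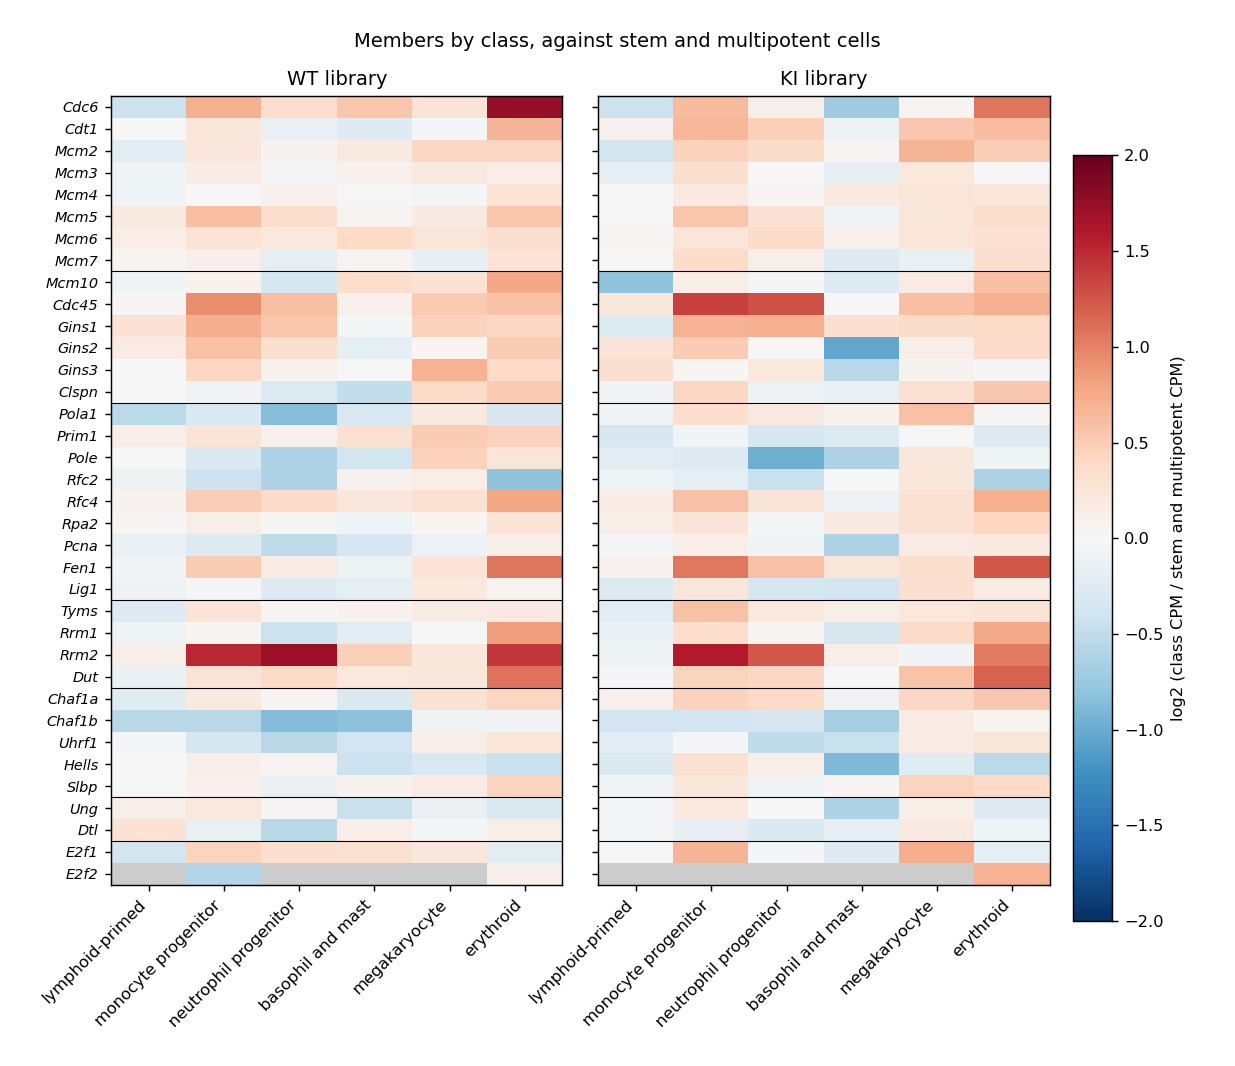
Log2 ratio of each of the 36 genes in a class to its level in stem and multipotent cells, in each library; colour gives the ratio, genes are grouped by role, and grey marks genes under 50 UMIs. Rrm2 stands out as higher in erythroid, monocyte and neutrophil cells (1.41, 1.51 and 1.72 in WT), and Rfc2 as lower in erythroid cells (-0.80 in WT, -0.64 in KI).

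The erythroid class was made of different clusters in the libraries, and the genotype comparison turns on one of them. WT erythroid cells lay mainly in cluster 2 (1178 cells) and cluster 4 (974 cells), which held 26 and 19 KI cells. KI erythroid cells lay mainly in cluster 1 (1339 cells), cluster 5 (958 cells) and cluster 8 (625 cells), which held 34, 2 and 1 WT cells. Cluster 1, with 43.7% of the KI erythroid cells, had its highest marker score for the megakaryocyte list and took the erythroid name from its second list, for which 8 of 12 markers were detected. Car1, an early red cell enzyme, had a UMI in 81.9% of its KI cells and Klf1, a red cell transcription factor, in 49.6%. Gata2 and Sox4, factors of earlier progenitors, had one in 70.8% and 91.6%. This cluster had the lowest list level of the large erythroid clusters, 1566 CPM (1529 to 1603) against 1833 CPM in the lymphocyte clusters, and 10.4% S phase cells (8.74 to 12.3) beside 80.2% called G1. Its KI cells had a median of 2991 UMIs, the shallowest of the large erythroid clusters. Cluster 4, the shallower of the large WT clusters, stood at 2819 CPM with 24.9% S phase and 52.6% G1 cells. The deeper clusters lay closer together: cluster 2 (WT) had 4550 CPM and 42.7% S phase cells, cluster 5 (KI) 4352 CPM and 42.5%, and cluster 8 (KI) 3849 CPM and 45.9%.

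The list differed between erythroid stages in both libraries. Cells were placed on a ratio of 20 late red cell genes (such as Alas2) to 10 early genes (such as Gata2, Cd34 and Meis1), none of them in the list, and divided into 3 stages with equal weight for each library. From early to middle to late, the list went from 2500 to 3951 to 4646 CPM in WT and from 2259 to 4013 to 4403 CPM in KI. These levels were not thinned, and depth ran together with stage. Median UMIs per cell went from 4426 to 14364 to 22427 in WT and from 3242 to 12765 to 16730 in KI. S phase shares went from 17.8% to 36.9% to 43.1% in WT and from 15% to 40.02% to 42.2% in KI. G1 calls went from 62.6% to 19.1% to 3.78% in WT and from 71.9% to 22.4% to 5.93% in KI, and G2 and M calls from 19.6% to 44.0% to 53.1% and from 13.1% to 37.5% to 51.9%. Stage genes were not matched between libraries within a stage. From early to late, Gata2 had 260, 62.3 and 21.8 CPM in WT and 342, 101 and 53.4 CPM in KI. Klf1 had 158, 255 and 309 CPM in WT and 222, 297 and 357 CPM in KI. Whether the mutation itself moves genes of the ratio was not tested. Within each stage the KI minus WT difference in S phase share was -2.82 points (-6.51 to 0.656) early, 3.17 (-1.66 to 7.94) in the middle and -0.928 (-5.71 to 3.88) late. The early value depended on cluster 1 and on the stage limits. Without the cluster, and with limits drawn again, early WT cells went from 623 to 953 and early KI cells from 1287 to 607. The early S phase share was then 24.6% in WT and 43.2% in KI. Other cell filters and a lower clustering resolution gave differences of 17.2 to 21.0 points. G2 and M calls differed by -6.45 points (-10.2 to -2.93) early, -6.46 (-11.3 to -1.59) in the middle and -1.22 (-6.06 to 3.63) late. Early list levels did not overlap in their intervals (2451 to 2551 CPM in WT, 2220 to 2298 CPM in KI). The libraries differed in how many cells each stage held. Early, middle and late cells made up 27.7%, 31.1% and 41.1% of WT and 44.4%, 30.6% and 25% of KI erythroid cells. With the stage proportions of WT, the KI S phase share came to 34.0%, beside 34.2% in WT. With those of KI, the WT share came to 29.97%, beside 29.5% in KI. These shares kept cluster 1 in the early stage. Without it, and with limits drawn again, S phase shares from early to late were 24.6%, 38.2% and 44.3% in WT. In KI they were then 43.2%, 42.7% and 42.2%. Other values still differed with the stage proportions of WT and cluster 1 kept. G2 and M shares were 36.7% in KI and 41.0% in WT, and list levels 3688 and 3835 CPM. Cells with at least 5 list UMIs made up 63.7% and 66.4%. Most early cells came from cluster 4 in WT (89.1%) and cluster 1 in KI (81.5%), and most late cells from cluster 2 in WT (86.5%) and cluster 5 in KI (73.8%).

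**Figure D3:**
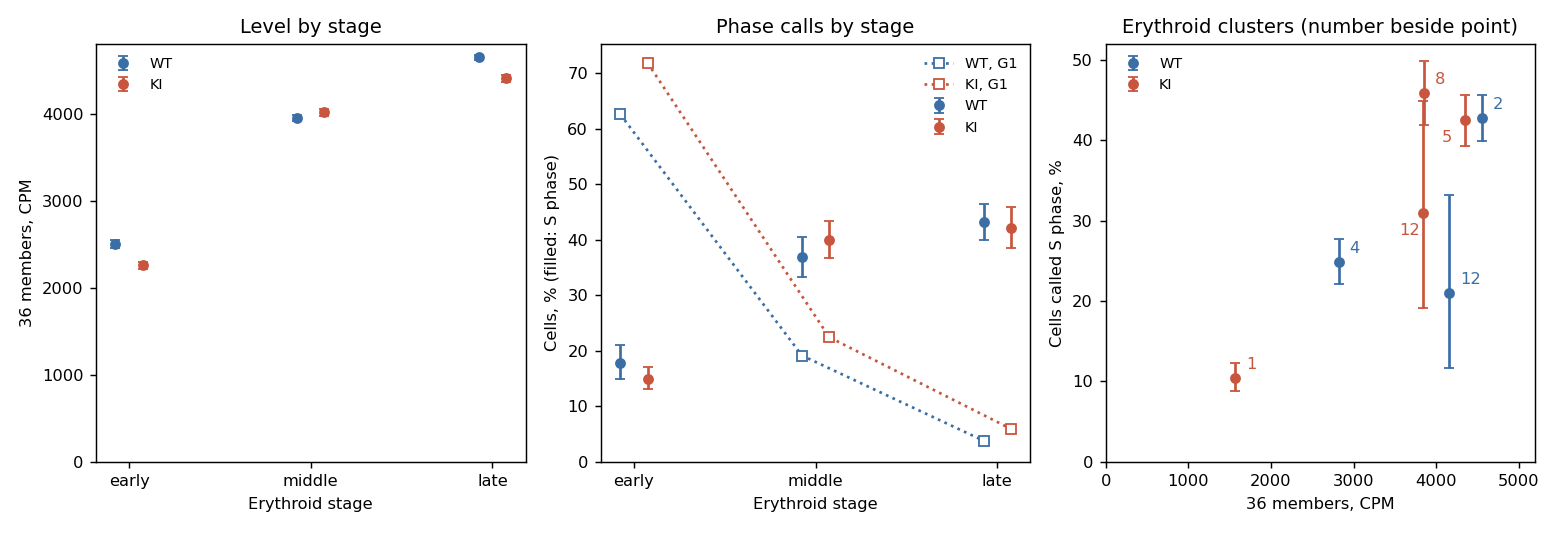
Left, level of the list (CPM) in early, middle and late erythroid cells; centre, share of S phase (filled) and G1 (open) cells; right, S phase share against level in each large erythroid cluster, with counting intervals of 95% where drawn. S phase shares climb from 17.8% to 43.1% in WT and from 15% to 42.2% in KI. Without cluster 1, and with stage limits drawn again, the early shares were 24.6% and 43.2%.

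Nearly all of the 36 genes stood higher in late cells. In both libraries 35 were higher in late than in early erythroid cells, with a median log2 ratio of 0.87 in WT and 1.03 in KI against -0.05 over all genes. Apart and higher were 34 genes in WT, where 28.9% of all genes were, and 33 in KI, where 30.2% were. The exception was Rfc2, at 158 and 138 CPM in WT early and late cells (-0.19, -0.32 to -0.07) and 155 and 150 CPM in KI (-0.05, -0.16 to 0.07).

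All 8 licensing genes were higher in late cells. Cdc6 went from 33.9 to 90.6 CPM in WT (log2 ratio 1.42) and from 27.7 to 72.8 CPM in KI (1.40). Cdt1, which brings the helicase to origins and is destroyed once S phase starts, went from 43.5 to 98.5 CPM (1.18) and from 31.5 to 67.1 CPM (1.09). The 6 subunits of the helicase had smaller ratios, from 0.48 for Mcm6 to 1.03 for Mcm5 in WT and from 0.46 to 1.10 for the same genes in KI. Origin firing genes included Mcm10, which activates the helicase, with ratios of 1.13 and 1.62, and Cdc45 with 1.33 and 1.47. Clspn, the fork protein Claspin that relays checkpoint signals, went from 36.3 to 86.5 CPM in WT (1.254) and from 30.3 to 95.0 CPM in KI (1.65).

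Among polymerase, clamp and strand joining genes the difference was uneven. Fen1 went from 68.9 to 159 CPM in WT (1.21) and from 52.1 to 154 CPM in KI (1.57), and Rfc4 had a ratio of 1.26 in each. Pola1, the catalytic subunit of the priming polymerase, had ratios of 0.40 and 0.61. Pcna, the sliding clamp, went from 62.1 to 102 CPM (0.72) and from 56.7 to 95.9 CPM (0.76), and Lig1, which seals Okazaki fragments, from 102 to 153 CPM (0.59) and from 100.04 to 175 CPM (0.81). Nucleotide supply held the steepest gene of the list. Rrm2 went from 34.2 to 160 CPM in WT (2.23) and from 25.5 to 128 CPM in KI (2.33), while its partner Rrm1, the large subunit of the same enzyme, had ratios of 1.19 and 1.49. Dut stood at 1.29 and 1.30 and Tyms, which makes thymidylate, at 0.89 and 1.19.

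Of the chromatin genes, Uhrf1, which guides maintenance methylation to new DNA, had ratios of 1.41 in WT and 1.20 in KI, and Slbp, which binds histone messenger RNA, 0.89 and 0.71. Dtl, the adaptor of the ligase that destroys Cdt1 during S phase, was nearly level: 68.1 and 78.7 CPM in WT (0.21, 0.02 to 0.40) and 72.2 and 78.0 CPM in KI (0.11, -0.06 to 0.28). E2f2, an activating E2F, had ratios of 1.70 in WT and 1.09 in KI. Genes outside the list went the same way. Of 53 other replication genes, 51 in WT and 50 in KI were higher late than early, and of 52 G2 and M phase genes 48 and 50. Apart and higher were 43 and 46 of the former and 45 and 47 of the latter, against the 28.9% and 30.2% of all genes.

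This stage difference was smaller without cluster 1 and with stage limits drawn again. The median log2 ratio of late to early was then 0.56 in WT, with 31 genes apart and higher (20.5% of all genes), and 0.22 in KI, with 10 such genes (11.2%). In WT the cluster held only 34 erythroid cells, while early cells went from 623 to 953 with the new limits. Cluster and limits changed together, and their parts were not separated. Of the other replication genes 36 in WT and 14 in KI were then apart and higher, and of the G2 and M phase genes 34 and 25. Early KI cells then stood at 3838 CPM and 43.2% S phase cells, and early WT cells at 3112 CPM and 24.6%.

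Between genotypes, the summed list was slightly lower in KI erythroid cells as a class, and this difference was not there without cluster 1. As a mean per cell thinned to 2000 UMIs, the list had 7.15 UMIs in WT and 5.94 in KI. Without cluster 1 these means were 7.20 in WT and 8.13 in KI, so KI was then the higher. With all erythroid cells, the summed level had a log2 ratio of KI to WT of -0.14, the median over the 36 genes was -0.12 against 0.05 over all genes, and 27 genes were lower and 9 higher. Apart and lower were 6 genes, where 9.93% of all genes were, and 0 were apart and higher, where 19.5% of all genes were. Without cluster 1 the summed levels were 4199 CPM in WT and 4211 CPM in KI (log2 ratio 0.00), 19 genes were higher and 17 lower, and Cdt1 and E2f2 were the 2 genes apart and lower, where 13.5% of all genes were; 0 were apart and higher, where 11% were. The S phase share differed by -4.71 points (-7.28 to -2.14) with the cluster, and was 34.5% in WT and 42.7% in KI without it. Where another filter, doublet setting or clustering resolution gave such cells the stem name, the difference was 2.19 to 9.67 points, and with cells thinned to 4000 UMIs it was 2.54 points. With at least 5 UMIs of the list as the call and cluster 1 kept, it was -13.3 points, from 66.4% in WT to 53.2% in KI. Without cluster 1 that call gave 66.9% in WT and 79.0% in KI.

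**Figure D4:**
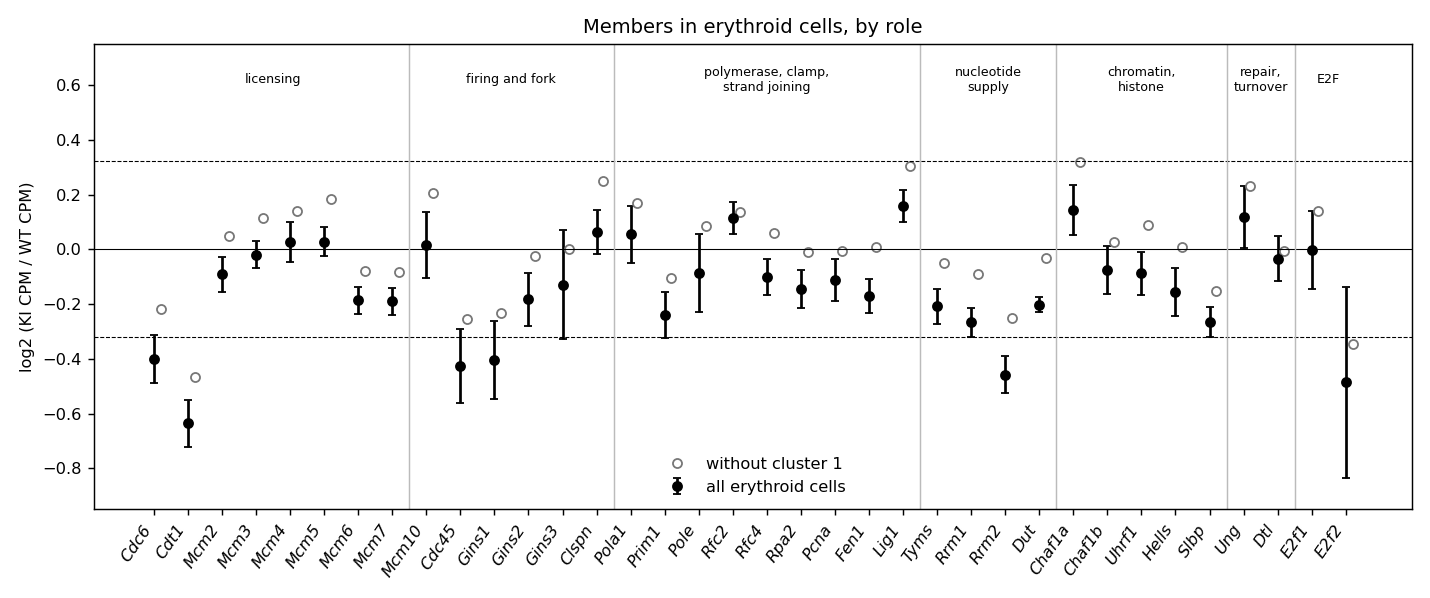
Log2 ratio of KI to WT for each of the 36 genes in erythroid cells, with all clusters (filled) and without cluster 1 (open); error bars are counting intervals of 95% for all clusters, dashed lines mark the limit of 0.32, and genes are grouped by role. Cdt1 is the lowest with all clusters (-0.64) and stays lower without cluster 1 (-0.46), while the median over the genes goes from -0.12 to 0.00.

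Licensing genes split. Cdt1 (ENSMUSG00000006585, chromosome 8, 122568015 to 122573554, plus strand) was the 1 gene of the list at least 1.5-fold lower, where 4.4% of all genes were, and 0 were 1.5-fold higher, where 9.21% were. It had 87.4 CPM (84.4 to 90.6) in WT and 56.3 CPM (53.6 to 59.1) in KI, a log2 ratio of -0.64 (-0.72 to -0.55). It was lower in early, middle and late cells alike (-0.46, -0.50 and -0.55) and without cluster 1 (-0.46). The same gene was at -0.57 in stem and multipotent cells and -0.48 in lymphoid-primed cells, but at 0.00 in megakaryocyte and 0.05 in neutrophil cells. Cdc6 stood at 77.6 and 58.8 CPM (-0.40), or -0.22 without cluster 1. The helicase subunits were closer together: Mcm6 had 230 and 202 CPM (-0.19), Mcm7 238 and 209 CPM (-0.19) and Mcm2 127 and 120 CPM (-0.09), whereas Mcm3 had 203 and 200 CPM (-0.02) and Mcm5 167 and 171 CPM (0.03). Mcm4 and Mcm5 were higher in KI in 7 of 7 classes, by ratios of 0.29 or less outside megakaryocyte cells.

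Origin firing genes went in both directions. Gins1, a subunit of the GINS complex, stood at 29.3 and 22.2 CPM (-0.40, and -0.23 without cluster 1) and was lower in 6 of the 6 classes in which it was measured. Cdc45 stood at 32.7 and 24.4 CPM (-0.43, and -0.25 without the cluster). Clspn had 75.1 and 78.5 CPM (0.06) in erythroid cells and 49.9 and 72.4 CPM (0.54) in monocyte progenitors. Of polymerase, clamp and strand joining genes, Rfc2 had 143 and 154 CPM (0.11) and Lig1 144 and 161 CPM (0.16), both higher in KI, while Fen1 had 141 and 125 CPM (-0.17). Pola1 had 45.7 and 47.5 CPM (0.05). Rpa2, which coats single-stranded DNA, was lower in 7 of 7 classes, by -0.15 in erythroid cells.

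All 4 nucleotide supply genes had ratios below 0 in erythroid cells, of which Rrm2 was apart. Rrm2 (chromosome 12, 24708241 to 24714146, plus strand) had 128 CPM (124 to 131) in WT and 92.9 CPM (89.4 to 96.4) in KI, a log2 ratio of -0.46 that was -0.25 without cluster 1, and it was lower in 7 of 7 classes. Rrm1 had 208 and 173 CPM (-0.27), Tyms 136 and 118 CPM (-0.21) and Dut 724 and 629 CPM (-0.20). Without cluster 1 these 3 were at -0.09, -0.05 and -0.03.

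Of the chromatin and histone genes, Slbp had 194 and 161 CPM (-0.27, and -0.15 without cluster 1). Chaf1a, the large subunit of CAF-1, had 58.0 and 64.0 CPM (0.14, and 0.32 without the cluster) and was higher in 7 of 7 classes. Uhrf1, Hells and Chaf1b lay between -0.16 and -0.08. In the repair and turnover pair, Ung was at 37.8 and 41.0 CPM (0.12) and Dtl at 77.1 and 75.3 CPM (-0.03). E2f1 was alike at 24.8 CPM in each library, and E2f2 had 5.30 and 3.79 CPM (-0.48, -0.84 to -0.14) from 188 and 111 UMIs. By stage, the median of the list was -0.19 in early cells, where 11 of 35 measured genes were apart and lower (12.7% of all genes). It was 0.03 in middle cells, with 3 genes lower (11.2%) and 3 higher (11.9%), and -0.06 in late cells, with 2 lower (10.5%). Clusters of different libraries fill the early stage, so gene and cluster differences cannot be told apart there.

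Genes around the list were read the same way. Of 53 other replication genes, 35 were lower and 18 higher in KI erythroid cells, with a median of -0.12; 8 were apart and lower (9.93% of all genes) and 2 apart and higher (19.5%). Without cluster 1, 26 were lower and 27 higher, with 5 apart and lower (13.5%) and 1 apart and higher (11%). Those with the most UMIs were Nasp, a histone chaperone, at 286 and 269 CPM, Gmnn, the inhibitor of Cdt1, at 175 and 151 CPM, Tipin, a fork protection factor, at 172 and 149 CPM, and Usp1, a deubiquitinase of Pcna, at 127 and 146 CPM. Ccne1, cyclin E1, which drives entry into S phase, was farther apart than any gene of the 36: 95.4 CPM in WT and 48.7 CPM in KI (-0.97), with -1.13, -0.69 and -0.78 from early to late and -0.75 without cluster 1. Orc1, a subunit of the origin recognition complex, had 14.1 and 9.38 CPM (-0.59, and -0.38 without the cluster). In the E2F and Rb family, 7 of 14 genes were higher and 7 lower (median -0.01), or 6 and 8 without cluster 1. E2f3, an activating E2F, had 47.4 and 27.4 CPM (-0.79, with -0.59, -0.59 and -0.84 by stage and -0.68 without cluster 1), and its dimer partner Tfdp1 had 132 and 104 CPM (-0.34). E2f4 had 169 and 149 CPM. Of 52 G2 and M phase genes, 42 were lower and 10 higher, with a median of -0.16 and 10 apart and lower (9.93% of all genes). Without cluster 1, 31 were lower and 21 higher, with 4 apart and lower (13.5%). Hmgb2, a chromatin protein of dividing cells, had 2089 and 1553 CPM (-0.43, and -0.33 without the cluster), Ncapd2, a condensin subunit, was at -0.63 and Gtse1, a mitotic protein, at -0.60. Mki67, the proliferation marker Ki-67, had 319 and 315 CPM.

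Outside the erythroid class, the S phase share differences whose intervals did not hold 0 had opposite signs in monocyte progenitors and in basophil and mast cells. Monocyte progenitors had 5.38 points more S phase cells in KI (0.125 to 10.6), and the median over the 36 genes was 0.14 against 0.06 over all genes; 2 genes were apart and higher, where 17.5% of all genes were. With at least 5 UMIs of the list among 2000 as the call, the share differed by -0.133 points instead. The 2 genes were Clspn and Pola1 (0.35), and Gins1 was the 1 gene apart and lower (-0.42), where 11.4% of all genes were. Basophil and mast cells had 32.6% S phase cells in WT and 23.0% in KI, a difference of -9.58 points (-18.6 to -0.354). There the median was -0.21, and 11 of 30 measured genes were apart and lower, where 16% of all genes were. Mcm7 stood at 205 and 136 CPM (-0.59), Mcm6 at 240 and 176 CPM (-0.45) and Cdc6 at 33.5 and 17.2 CPM (-0.97). Stem and multipotent cells (median -0.05), neutrophil progenitors (0.06), megakaryocyte cells (0.05) and lymphoid-primed cells (-0.14) lay between them. S phase share differences in those 4 classes had intervals that held 0. Another random seed of the thinning moved such values: the megakaryocyte difference went from 0.547 points (-6.24 to 7.30) to 8.23 (1.40 to 14.9), and the monocyte difference became 4.35 points (-0.915 to 9.58), an interval that held 0. The G2 and M call was lower in KI in 7 of 7 classes, by -10.7 points in erythroid cells, but without cluster 1 it was 41.4% in WT and 44.8% in KI erythroid cells.

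How closely each gene went with the rest of the list within a library was read from erythroid cells alone. For each gene, thinned cells were ranked by the UMIs of the other 35 genes, and its level in the top 25% was set against the bottom 25% (562 cells each in WT, 724 each in KI). The median log2 ratio was 2.02 in WT and 2.49 in KI. In WT the interval of all 36 genes lay above 0, and in KI that of 35. The highest ratio in both libraries was that of Rrm2, at 3.65 (2.93 to 4.45) in WT and 4.54 (3.59 to 5.69) in KI. Next in WT came Pole, the leading strand polymerase, at 3.49 (2.04 to 5.43, from 4 and 45 UMIs) and Cdc45 at 3.41 (2.09 to 5.09). In KI these were Mcm10 at 4.27 (2.85 to 6.18, from 4 and 77 UMIs) and Clspn at 4.04 (3.13 to 5.13). The intervals of all 4 hold the value of Rrm2, so this order is not resolved. Least coupled were Rfc2 at 0.88 and 0.93 and Dtl at 0.96 and 0.76. Pola1 was at 1.02 in WT and 1.86 in KI, and E2f2 at 0.74 in KI from 6 and 10 UMIs. Over the 36 genes the ratios of the libraries had a Spearman correlation of 0.586, given as a description, since all genes of a library share its cells and depth.

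**Figure D5:**
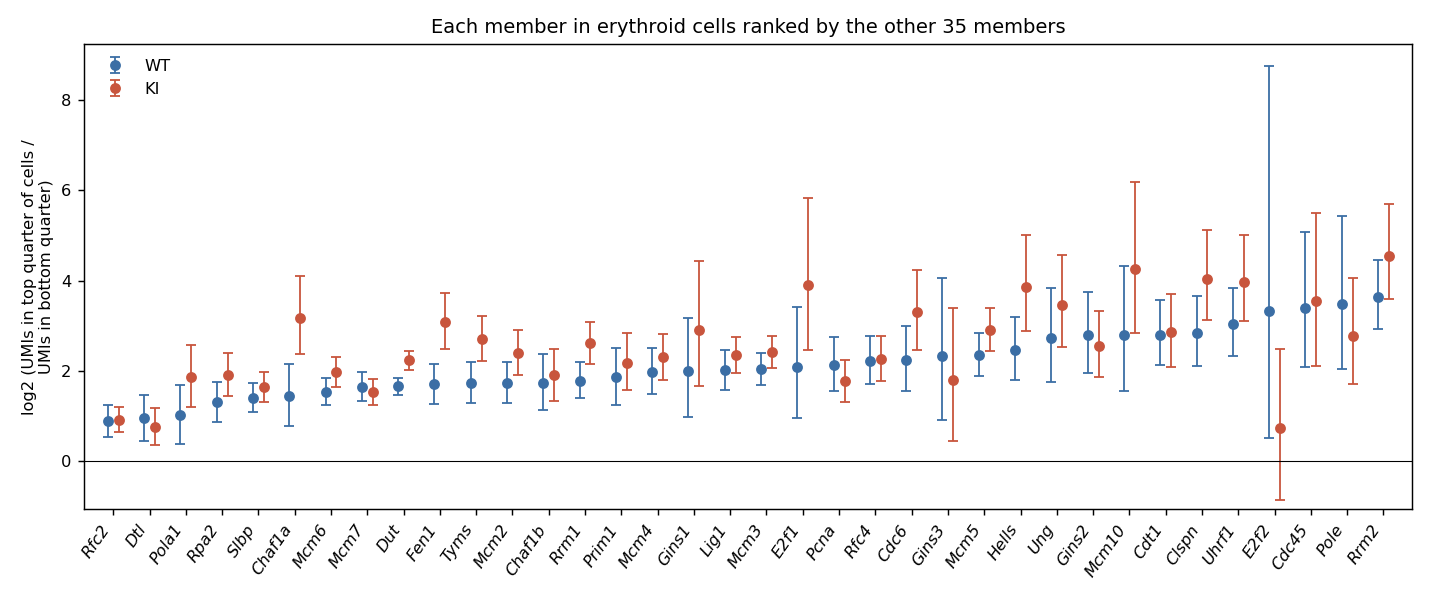
Log2 ratio of each of the 36 genes between erythroid cells in the top and bottom 25% by the UMIs of the other 35, in WT and KI. Rrm2 lies at the top of both libraries (3.65 and 4.54), and Rfc2 and Dtl near the bottom (0.88 and 0.96 in WT).

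The E2F motif did not order the genes by this measure. The 14 genes with the motif had a median of 2.28 in WT and 2.38 in KI, and the 17 without it 1.79 and 2.61. Dtl, Pola1, Mcm5 and Mcm6, whose promoter letters are printed above, spanned 0.96 to 2.35 in WT and 0.76 to 2.90 in KI. With the same kind of ranking, 44 of 44 measured other replication genes in WT and 43 of 45 in KI were higher in the top 25% (37.7% and 37.3% of all genes were apart and higher), with medians of 1.40 and 1.63, and G2 and M phase genes had medians of 0.70 and 1.08. Ccne1 was higher by 2.88 in WT (2.12 to 3.74) and 5.57 in KI (3.68 to 8.64, from 2 and 95 UMIs), and Tk1, the salvage enzyme thymidine kinase, by 2.95 and 3.70. Genes of early progenitors went the other way: Meis1 had ratios of -4.58 and -3.87, Gata2 -2.79 and -1.81, and Sox4 -3.82 and -3.62.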

How the data were processed

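The deposited files are count matrices, genes by barcodes, of unnormalized UMIs, for 1 WT and 1 KI library of Lin- Kit+ bone marrow cells. Libraries were made with a 10x Genomics kit for 3′ ends of version 2, per the labels' protocols, and counts came from Cell Ranger 3.1.0, per the file headers, on mm10, per the submitters' processing notes. A cell passed with 500 genes, 1000 UMIs and no more than 10% of UMIs from mitochondrial genes. Scrublet called 2.59% of WT cells doublets but 0.0692% of KI cells, so the top 5% of KI scores were removed instead (146 and 290 cells removed). Cells were clustered with scanpy 1.11.5 and leidenalg 0.10.2 on 2000 variable genes without the lists used here, 30 principal components and 15 neighbours at resolution 1. A cluster took the class of its highest marker list with at least 3 markers detected in 10% of its cells, a rule set after clusters were seen. Classes compared had at least 100 cells in each library, and genes at least 50 UMIs over the groups compared. Of the 36 genes, every one was counted, and those that did not reach 50 UMIs in a class are left out of its counts. Ratios are conditional binomial, levels Poisson and shares Clopper-Pearson, all exact (numpy 2.4.6, scipy 1.17.1); share differences are Newcombe. Apart means a log2 ratio of at least 0.32 in size. The procedure was tested on simulated data. Background RNA was not estimated. The 36 genes and all lists were chosen with earlier results of these data known. Named with full values were the 12 genes with the most UMIs, genes at least 1.5-fold apart in erythroid cells, and the 3 that followed the list most and least closely; of other lists, up to 4 genes with the most UMIs and those 1.5-fold apart. Other genes were named after their values were seen. Alternatives are given in the closing section.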

Additional observations from a re-analysis of the deposited data

Results flagged for a closer look

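The change in the share of S phase cells had opposite signs in different classes of the same 2 libraries. KI minus WT was 5.38 points in monocyte progenitors, -9.58 points in basophil and mast cells and -4.71 points in erythroid cells, each with a counting interval that did not hold 0. The difference between the classes was not tested, since 1 library per genotype leaves no error between animals. With another random seed of the thinning the monocyte difference was 4.35 points with an interval that held 0 (-0.915 to 9.58). Basophil and mast cells numbered 175 in WT after thinning, and the erythroid value is 8.26 points without cluster 1.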

How the results depend on the processing

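No paired analysis was possible because each genotype is 1 library, and for the same reason no replicate could be left out. In erythroid cells the KI minus WT difference in S phase share (-4.71 points) was 8.32 with a stricter cell filter, 9.67 with a looser one, 2.19 with doublets kept, 9.06 at clustering resolution 0.6, 2.54 with cells thinned to 4000 UMIs and 8.26 without cluster 1, which was chosen after seeing the data. With at least 5 UMIs of the list as the call and cluster 1 kept, it was -13.3. Without cluster 1 that call gave 66.9% in WT and 79.0% in KI. In the 4 settings of filter, doublets and resolution, cells like cluster 1 took the stem name. In the same order, the early stage difference (-2.82 points) was 17.2, 21.0, 3.85, 20.6, 8.75, 18.6 and -8.21, and -6.62 with stages from the late genes alone. Stage limits were drawn again for the value without cluster 1. The summed erythroid list (log2 -0.14) was 0.0019, 0.016, -0.060 and 0.012 under those 4 settings, 0.0044 without cluster 1, -0.19 centred on the median gene and -0.27 with each cell weighted alike. The middle and late stage shares kept within their counting error under all 16 alternatives (-0.643 to 5.55 and -3.42 to 1.59 points). In monocyte progenitors the UMI call gave -0.133 points. The megakaryocyte share difference (0.547 points) was 8.23 with another random seed of the thinning. The erythroid to stem ratio (log2 0.42 in WT) was 0.67 with the looser filter, 0.98 with doublets kept, 0.63 at resolution 1.6, 0.59 with KI cells placed on WT clusters and 0.54 centred. In KI (0.37) it was 1.005 with the stricter filter, 1.14 with the looser one, 1.10 with doublets kept, 1.28 at resolution 0.6, 0.52 at 1.6, 0.62 placed on WT clusters, 0.46 centred, 0.24 with cells weighted alike and 0.52 without cluster 1. The KI median of how genes followed the list (2.49) was 1.64 at 4000 UMIs. At 1.5-fold, 1 gene was lower and 0 higher in KI erythroid cells, against 6 and 0 at the smaller limit of 0.32 (log2), and 8 (WT) and 10 (KI) genes were higher in erythroid than in stem cells, against 19 each; no test was run. The cause of the changes not tied to cluster 1 was not tested. Depth limits the calls most in KI, where 299 cells fell under 2000 UMIs.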
